A study of Mus musculus with 6 samples.

Results

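The genes of B cells, plasma cells, T cells and natural killer (NK) cells were followed in mouse creeping fat, the adipose tissue that wraps around an injured bowel, and in uninjured mesenteric fat. The set holds 48 of the 22134 genes in the deposited expression table, taken by name, and all 48 were found there. All libraries came from wild-type (WT) mice, 3 from creeping fat that formed after repeated colonic cautery injury and 3 from mesenteric adipose tissue of mice without injury, which serve as controls. Age, sex and strain are not given in the labels, nor do they say whether each library is a separate animal, so p-values measure the spread between these libraries, which may be technical. The labels also do not say whether lymph nodes were dissected away.

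Mesenteric fat carries lymph nodes, small lymphoid clusters and scattered lymphocytes. B cells signal through surface immunoglobulin paired with CD79A and CD79B, and those that become plasma cells give up much of this programme and secrete antibody instead. T cells signal through a receptor coupled to the CD3 chains, with CD4 on helper and regulatory cells and CD8 on cytotoxic cells. NK cells kill with the same granule proteins as cytotoxic T cells but carry no rearranged receptor.

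Levels are FPKM, fragment counts scaled to gene length and sequencing depth. The libraries held 31186018 to 43415696 assigned reads, recovered from the values. On the first principal component (66.69% of the variance) the groups separated, and the second (19.72%) set control 2 apart from the other 5 libraries. The groups also differed in genes of other cell types. Summed FPKM of 5 adipocyte markers was 549, 1266 and 791 in creeping fat replicates 1 to 3 and 7899, 2948 and 8143 in controls 1 to 3. Summed FPKM of 4 seminal vesicle genes was 13339 to 26176 in creeping fat and 0.171 to 46.8 in controls. That of 5 pancreatic acinar genes was 15.9, 3154 and 9.72 in creeping fat and 8383 to 20908 in controls. Genes of other organs were thus measured in both groups, and their part in the lymphocyte values was not tested. In bulk tissue, fewer cells of a type and less RNA per cell cannot be told apart.

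Sequences just upstream of 4 members are shown because these genes stand for the 4 kinds of cell followed here: Cd79a for B cells, Jchain for plasma cells, Ctla4 for regulatory and activated T cells, and Nkg7 for cytotoxic cells. Each run is the 250 bases before the gene's RefSeq start (GRCm38.p6), written 5′ to 3′ along the gene, at chr7:24897247-24897496 (plus strand), chr5:88527898-88528147 (minus strand), chr1:60908775-60909024 (plus strand) and chr7:43436888-43437137 (plus strand). Capitals mark matches to 5 short motifs named after the runs.
Cd79a: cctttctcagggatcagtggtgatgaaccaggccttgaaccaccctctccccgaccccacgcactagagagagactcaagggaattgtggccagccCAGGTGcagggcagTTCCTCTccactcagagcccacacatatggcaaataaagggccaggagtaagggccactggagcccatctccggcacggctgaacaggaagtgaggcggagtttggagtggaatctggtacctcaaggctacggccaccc
Jchain: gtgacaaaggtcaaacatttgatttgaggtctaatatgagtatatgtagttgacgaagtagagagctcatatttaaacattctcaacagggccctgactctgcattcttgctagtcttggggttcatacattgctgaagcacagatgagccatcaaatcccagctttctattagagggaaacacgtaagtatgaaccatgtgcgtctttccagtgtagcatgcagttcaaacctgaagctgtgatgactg
Ctla4: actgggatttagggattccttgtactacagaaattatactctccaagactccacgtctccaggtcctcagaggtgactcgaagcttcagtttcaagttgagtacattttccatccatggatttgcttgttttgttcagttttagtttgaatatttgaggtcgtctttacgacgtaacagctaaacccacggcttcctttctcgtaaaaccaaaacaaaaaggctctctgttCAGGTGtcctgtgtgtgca
Nkg7: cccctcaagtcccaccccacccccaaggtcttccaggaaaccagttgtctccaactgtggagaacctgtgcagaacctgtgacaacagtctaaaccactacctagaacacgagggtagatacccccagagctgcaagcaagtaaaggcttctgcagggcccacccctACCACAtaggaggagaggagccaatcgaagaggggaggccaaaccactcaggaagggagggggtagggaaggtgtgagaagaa

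The 5 motifs were each searched on both strands, none contains another, and they were kept after other motifs had also been looked at. RefSeq promoters were found for 35 of the 48 members, some with more than 1 start. The E-box of E proteins, spelled CAGGTG, was present in 18 of the 47 promoters of these genes (38.3%, from 17 genes), against 17.2% of all 32851 promoters of the same length. The core shared by PU.1 and Spi-B, spelled AGAGGAA, was present in 8 of 47 (17%, against 8.55% of all promoters). The RUNX core, spelled TGTGGT, was also present in 8 of 47 (17%, against 14%). The core bound by GATA factors, spelled AGATAA, was found in 3 of 47 (6.38%, against 9.99%). The octamer, spelled ATGCAAAT, was found in 0 of 47, against 1.6% of all promoters. Cd79a held an E-box and a PU.1 and Spi-B match, Ctla4 an E-box, and Nkg7 a RUNX match, while the printed Jchain stretch held none of the 5. A match is a string of letters and was not tested as a bound site.

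Control 2 held more lymphocyte RNA than either of the other controls. It was the highest control for 48 of 48 members and the highest of all 6 libraries for 42 of 48. Among the 41 members that passed the filter on low values given further on it was the highest for 37, against 36.3% of the 12812 genes that passed. Its FPKM was at least 2 times the mean of controls 1 and 3 for 46 of 48 members and for 39 of those 41, against 16.6% of genes tested. The exceptions were Bcl6, at 1.58 times, and S1pr1, at 1.27 times. Over all members the median ratio was 4.21 (range 1.27 to 8.44), while over all genes tested it was 1.19. The excess was present in every role: the median ratio was 3.60 for B cell genes, 5.68 for plasma cell and germinal centre genes, 5.29 for the T cell receptor complex and coreceptors, 4.26 for costimulation and regulation, 5.30 for transcription factors, 3.28 for cytotoxic and NK genes and 3.29 for activation and trafficking.

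**Figure D1:**
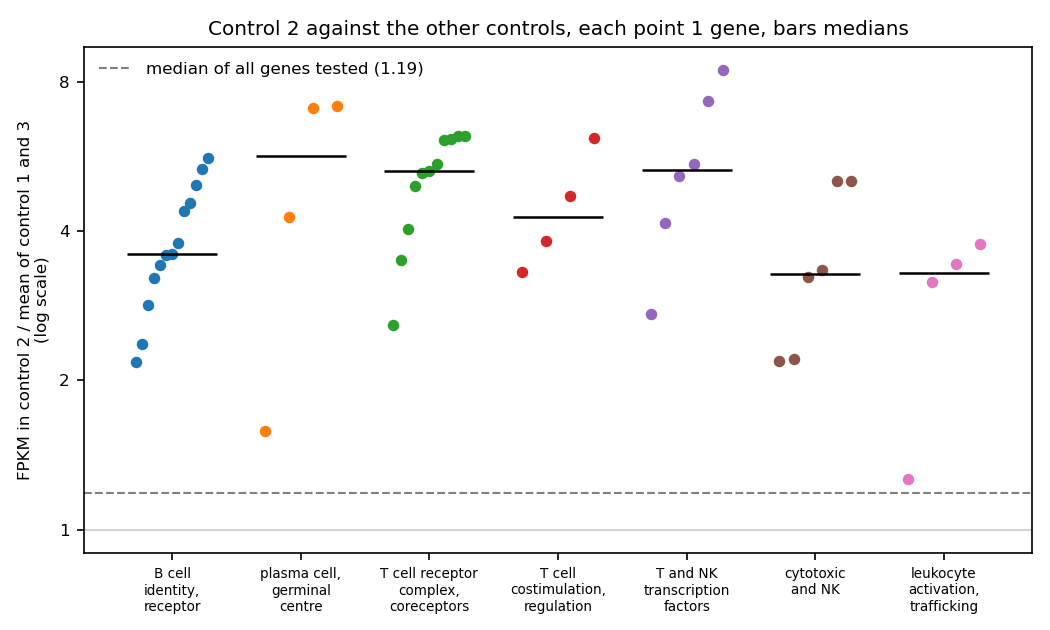
FPKM in control 2 divided by the mean FPKM of controls 1 and 3, on a log axis, for each of the 48 members grouped by role. Points are genes, black bars are role medians and the dashed line is the median of all genes tested (1.19). Every point lies above 1.

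Some genes of lymph node stroma and high endothelium were also high in control 2. The summed FPKM of 6 such markers was 70.9 in control 1, 270 in control 2 and 80.9 in control 3, and 215, 121 and 180 in creeping fat 1 to 3. Of the 6, 4 were at least 2 times the mean of the other controls in control 2 (Ccl21a, Ccl19, Glycam1 and Madcam1), and Cxcl13 and Chst4 were below it, at 0.76 and 0.179 times. Ccl21a, the most abundant of them and the chemokine that draws T cells and dendritic cells into lymph nodes, stood at 42.7, 202 and 46.5 FPKM in the controls and 133, 82.6 and 120 FPKM in creeping fat. Dendritic cell markers, 4 genes, summed to 8.34, 35.4 and 12.4 FPKM in controls and 26.9, 12.7 and 31.9 FPKM in creeping fat. By both sums control 2 was the highest library and creeping fat 2 the lowest of its group. Summed markers of neutrophils and macrophages were also highest among controls in control 2, though below every creeping fat library. Neutrophil markers summed to 7.28, 29.8 and 12.2 FPKM in controls and 114, 59.7 and 38.0 FPKM in creeping fat. Macrophage markers summed to 733, 1510 and 1226 FPKM in controls. The part of these cell types in the lymphocyte values was not tested.

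Creeping fat 2 lay at the other end for many members. It was the lowest creeping fat library for 38 of 48 members, including 13 of 13 B cell genes. Among the 41 members tested the count was 34, against 39.3% of all genes tested. Its B cell genes had a median of 0.28 times the mean of creeping fat 1 and 3, while T cell receptor complex genes had a median of 0.635 times, and all genes tested 0.976 times. The spread within each group was therefore large, and estimates are given below with all 6 libraries and without control 2. Removing control 2 leaves 2 controls, and its removal was chosen because earlier results had set it apart.

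**Figure D2:**
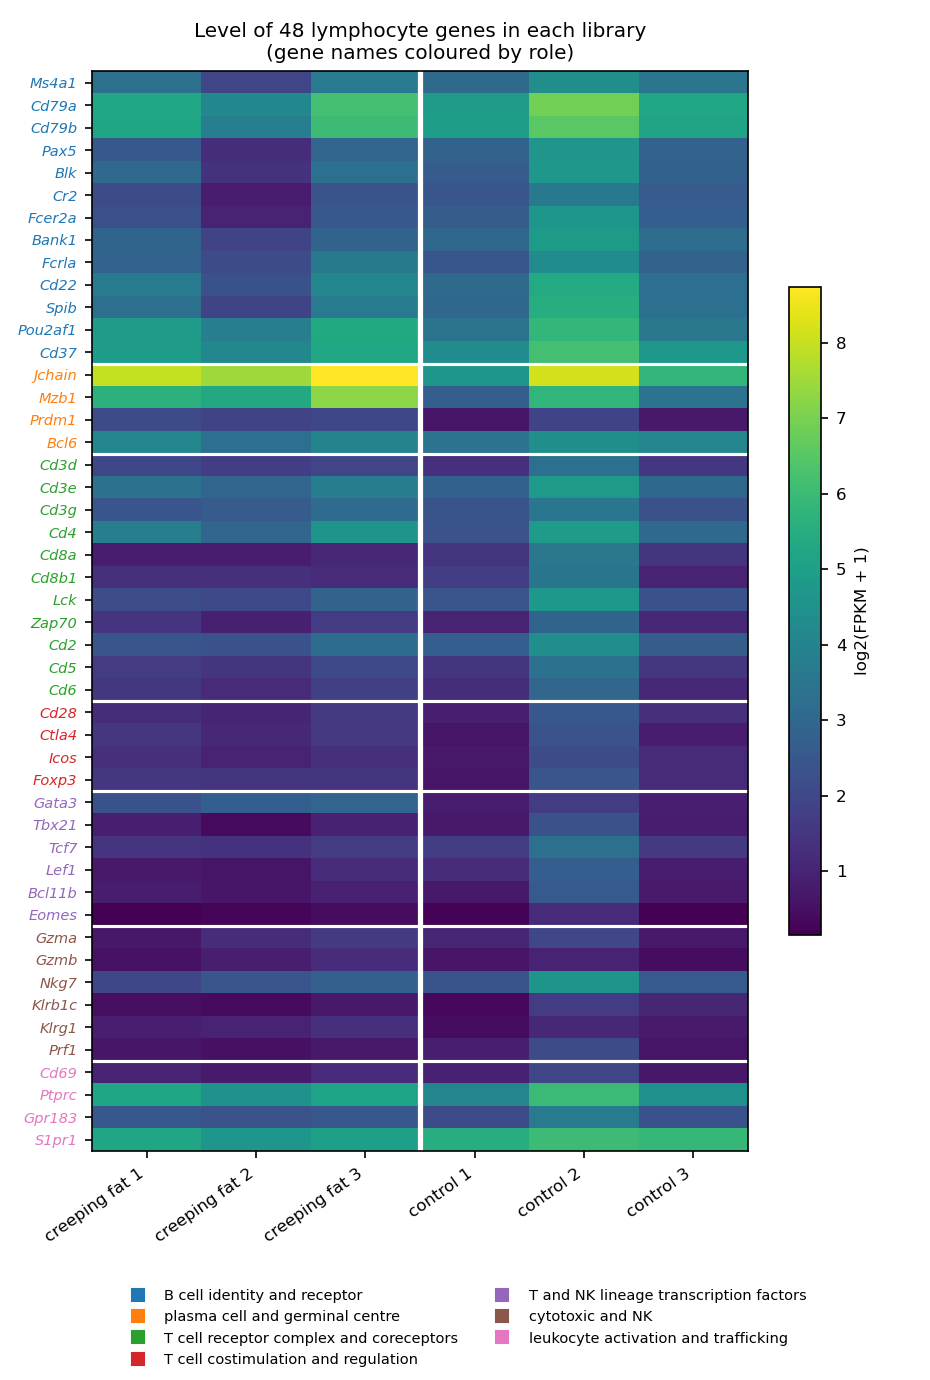
Level of each of the 48 members as log2(FPKM + 1), by colour, with the 3 creeping fat libraries left and the 3 controls right of the white line. Control 2 is the brightest control column throughout, and Jchain and Mzb1 are bright in all 3 creeping fat libraries.

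Creeping fat was compared with control by limma on log2(FPKM + 1), where the difference of group means is the log2 fold change. Of the 48 members, 41 reached 1 FPKM in 3 or more libraries and were tested. After Benjamini-Hochberg adjustment over all 12812 genes tested, 1 member, Gata3, was higher in creeping fat, against 9.35% of all genes, and 1, S1pr1, was lower, against 6.81% of all genes. Either way the 2 of 41 calls lie below the 16.2% of all genes called, and 5 of 41 members reached an unadjusted p under 0.05, against 30.8% of all genes. The members' median log2 fold change was -0.33, with 10 above 0 and 31 below, and that of all genes tested was 0.02. Ranges of the groups did not overlap for 2 members that were higher in creeping fat, Prdm1 and Gata3, against 20.2% of genes tested. They did not overlap for 5 that were lower, Cr2, Fcer2a, Bank1, Cd8a and S1pr1, against 16.9%.

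Without control 2, limma called 8 of 41 members, against 37.1% of all genes: 6 members higher (Cd3d, Ctla4, Gata3, Jchain, Mzb1 and Prdm1; 22.6% of all genes were called higher) and 2 lower (Cd8a and S1pr1; 14.5% of all genes were called lower). Of these, Gata3, Prdm1 and Ctla4 reached 1 FPKM only in the creeping fat libraries and control 2, so they passed the filter mainly by creeping fat. Cd8a reached 1 FPKM in the controls and creeping fat 3 only. The members' median without control 2 became 0.20, beside 0.13 for all genes, with 26 of 41 above 0. With creeping fat 2 also left out, 12 were called (34.7% of all genes), 11 of them higher and 1 lower, against 21.2% and 13.5% of all genes, and the median was 0.39 beside 0.15. The sign of the members' median therefore depended on control 2.

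**Figure D3:**
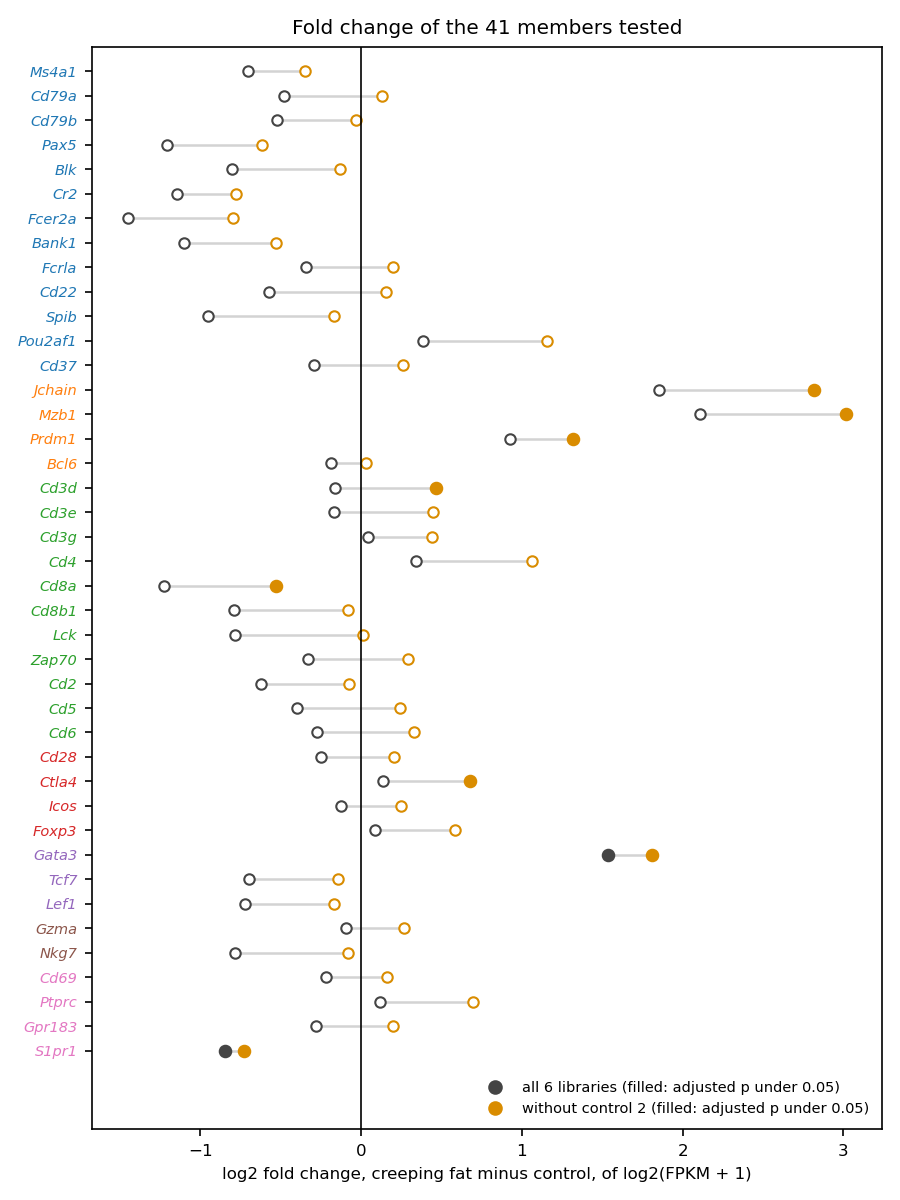
Log2 fold change, creeping fat minus control on the log2(FPKM + 1) scale, of the 41 members tested, with all 6 libraries (grey) and without control 2 (orange). Filled points passed an adjusted p under 0.05: Gata3 and S1pr1 with all 6 libraries, and these with Cd3d, Ctla4, Jchain, Mzb1, Prdm1 and Cd8a without control 2.

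None of the 13 B cell genes passed the test in either direction with all 6 libraries or without control 2. By limma 1 had an unadjusted p under 0.05 with all 6 libraries (Cr2, lower) and another 1 without control 2 (Pou2af1, higher). The median log2 fold changes of the 13 genes were -0.70 and -0.13. Without creeping fat 2 and control 2 the median was 0.46, with 9 of 13 above 0, and 2 genes, Cd22 and Pou2af1, were called higher. The summed FPKM of the 13 was 193, 80.9 and 295 in creeping fat 1 to 3 and 142, 573 and 175 in controls 1 to 3, so the creeping fat range enclosed controls 1 and 3 while control 2 stood above all. Ms4a1, which encodes the B cell surface protein CD20, stood at 8.90, 2.87 and 11.6 FPKM in creeping fat and 7.70, 19.8 and 10.5 FPKM in controls. Its log2 fold change was -0.70 ± 0.50 (SE; limma adjusted p = 0.408), and -0.35 without control 2. Cd79a, a signalling chain of the B cell receptor, stood at 38.5, 16.9 and 70.5 FPKM in creeping fat and 28.3, 118 and 37.7 FPKM in controls. The groups overlapped for both genes, and the estimate for Cd79a, -0.48 ± 0.66 with all 6 libraries, was 0.13 without control 2. Its partner Cd79b had 35.9, 13.3 and 63.9 FPKM in creeping fat and 29.4, 91.2 and 34.97 FPKM in controls, again overlapping, with estimates of -0.52 and, without control 2, -0.03. Cd37, a tetraspanin abundant on mature B cells, had 28.4, 17.0 and 38.4 FPKM in creeping fat and 18.8, 71.5 and 25.7 FPKM in controls. Its estimate was -0.29 ± 0.52 and 0.26 without control 2.

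For 3 of the 13 genes every creeping fat library was below every control, which was so for 16.9% of all genes tested. Cr2, the complement receptor CD21, had 3.31, 0.781 and 4.07 FPKM in creeping fat and 4.46, 11.4 and 5.17 FPKM in controls. Fcer2a, the low-affinity IgE receptor CD23, had 3.75, 0.980 and 4.56 FPKM in creeping fat and 5.48, 24.2 and 5.53 FPKM in controls. Bank1, a scaffold of B cell receptor signalling, had 6.59, 2.77 and 6.52 FPKM in creeping fat and 7.01, 27.6 and 8.29 FPKM in controls. None of the 3 passed by limma (log2 fold changes -1.14 ± 0.47, -1.45 ± 0.62 and -1.10 ± 0.52, adjusted p 0.157, 0.17 and 0.213). Their estimates moved toward 0 without control 2 (-0.78, -0.80 and -0.52) and further without creeping fat 2 as well (-0.31, -0.34 and -0.19). Pax5, the factor that holds B cell identity and is switched off in plasma cells, had 4.75, 1.39 and 6.74 FPKM in creeping fat and 6.31, 23.7 and 6.21 FPKM in controls, overlapping by creeping fat 3. Its estimate was -1.20, and -0.61 without control 2. Blk, Fcrla, Cd22 and Spib, a kinase, an Fc receptor-like protein, an inhibitory receptor and an ETS factor of B cells, had log2 fold changes of -0.95 to -0.34 and overlapping groups, and -0.17 to 0.20 without control 2. Cd22 turned from -0.57 to 0.16 without control 2 and to 0.68 without creeping fat 2 as well, where it was called higher (limma adjusted p = 0.0262).

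Pou2af1, a coactivator needed for germinal centres and antibody secretion, was the B cell member with the highest estimate. It had 28.1, 13.2 and 40.02 FPKM in creeping fat and 10.02, 56.1 and 11.1 FPKM in controls. Its log2 fold change was 0.39 ± 0.69, and 1.16 without control 2 (limma adjusted p = 0.065), when all 3 creeping fat libraries were above both remaining controls. Without creeping fat 2 as well it was 1.58 and called higher (limma adjusted p = 0.000989). Cr2, Fcer2a, Bank1, Pax5, Cd22 and Pou2af1 were singled out after their values were seen.

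The plasma cell genes gave the largest positive estimates of the set. Jchain, the joining chain that links secreted IgM and IgA, had 250, 176 and 425 FPKM in creeping fat and 24.5, 281 and 55.0 FPKM in controls, or 283 ± 128 and 120 ± 140 (mean ± SD, n = 3). Controls 1 and 3 lay far below all creeping fat libraries, while control 2 lay among them. The log2 fold change was 1.85 ± 0.84 with all 6 libraries (limma adjusted p = 0.193) and 2.82 ± 0.44 without control 2 (adjusted p = 0.00386), within a range of 0.00102 to 0.429 over all settings. Mzb1, an endoplasmic reticulum chaperone of antibody assembly, had 50.3, 40.6 and 149 FPKM in creeping fat and 5.59, 54.9 and 9.81 FPKM in controls. Its estimate was 2.11 ± 0.84 (limma adjusted p = 0.145) and 3.02 ± 0.54 without control 2 (adjusted p = 0.00616, range over all settings 0.00158 to 0.374). Among the settings run, both genes passed only when control 2 was left out, alone or with creeping fat 2.

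Prdm1 encodes Blimp-1, the repressor that drives plasma cell formation and also acts in effector T cells and in myeloid cells. It had 3.35, 2.74 and 3.07 FPKM in creeping fat and 0.568, 2.65 and 0.671 FPKM in controls, so that creeping fat 2 lay just above control 2. Its log2 fold change was 0.93 ± 0.33 (limma adjusted p = 0.107) and 1.32 ± 0.14 without control 2 (adjusted p = 0.00102). Over the 14 other settings that tested Prdm1, the limma adjusted p ranged from 0.000991 to 0.297. Macrophage markers, 7 genes of which 6 were called higher, summed to 4827, 3225 and 5278 FPKM in creeping fat and 733, 1510 and 1226 FPKM in controls, and their part in the Prdm1 values was not tested. Bcl6, the germinal centre repressor that opposes Blimp-1, had 16.0, 8.78 and 15.0 FPKM in creeping fat and 9.75, 20.4 and 16.0 FPKM in controls. The groups overlapped for Bcl6, with an estimate of -0.19 ± 0.32, and 0.03 without control 2. The whole role summed to 320, 228 and 591 FPKM in creeping fat and 40.4, 359 and 81.5 FPKM in controls, and 0 of its 4 genes were called with all 6 libraries by limma (2 at an unadjusted p under 0.05).

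**Figure D4:**
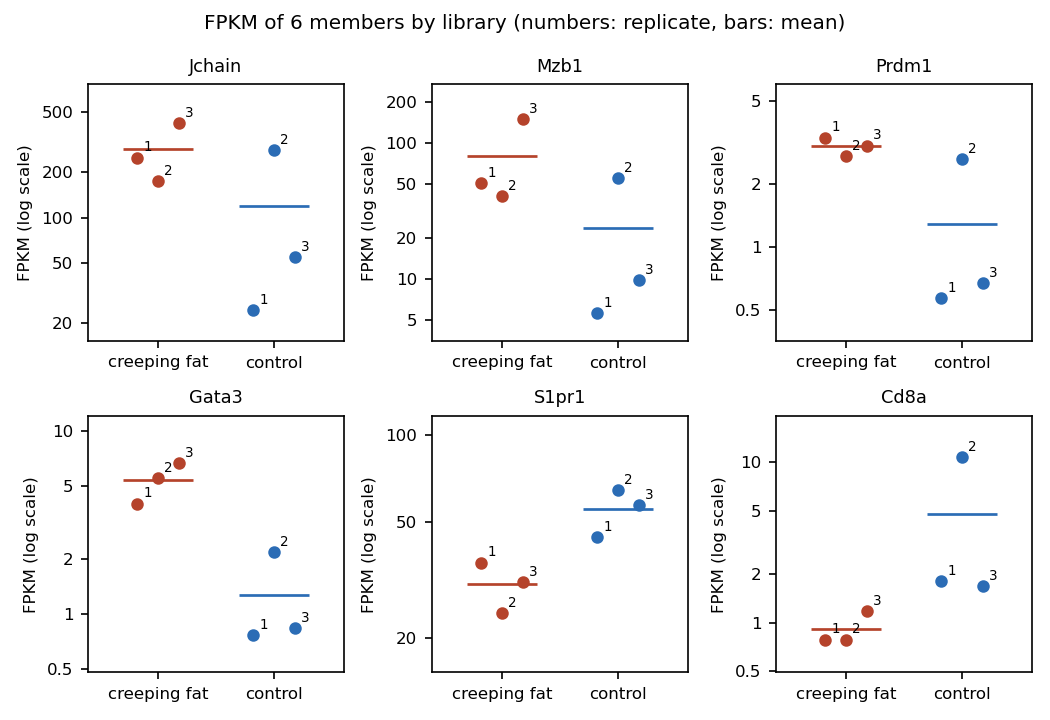
FPKM on log axes of Jchain, Mzb1, Prdm1, Gata3, S1pr1 and Cd8a in each library, with replicate numbers at the points and group means as bars. Creeping fat and control do not overlap for Prdm1, Gata3, S1pr1 and Cd8a, and control 2 lies within or near the creeping fat values for Jchain, Mzb1 and Prdm1.

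The T cell receptor complex and its coreceptors, 11 genes, showed no call with all 6 libraries by limma, and 0 reached an unadjusted p under 0.05. Their summed FPKM was 45.8, 34.5 and 71.2 in creeping fat and 34.0, 163 and 36.6 in controls, with a median log2 fold change of -0.33, or 0.29 without control 2. Cd3e, a signalling chain present on all T cells, had 9.15, 6.77 and 12.6 FPKM in creeping fat and 5.99, 26.3 and 7.05 FPKM in controls. Creeping fat 2 lay between controls 1 and 3, and the estimate was -0.17 ± 0.52, and 0.45 ± 0.24 without control 2. Cd3d, another such chain, had 2.91, 2.35 and 2.86 FPKM in creeping fat and 1.48, 8.82 and 1.89 FPKM in controls. It was called higher without control 2 (0.47 ± 0.15, limma adjusted p = 0.0468), against -0.16 ± 0.50 with all libraries. Over the 14 other settings that tested Cd3d, the limma adjusted p ranged from 0.0459 to 0.992. Lck, the kinase that starts receptor signalling, had 3.54, 3.09 and 6.45 FPKM in creeping fat and 4.36, 25.7 and 3.93 FPKM in controls, with estimates of -0.78 and, without control 2, 0.01.

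The 2 coreceptors differed in sign. Cd4 had 13.3, 6.82 and 22.9 FPKM in creeping fat and 4.14, 28.8 and 7.55 FPKM in controls, with an estimate of 0.34 ± 0.69 (limma adjusted p = 0.795) and 1.07 without control 2 (adjusted p = 0.112, range over all settings 0.00901 to 0.982). Cd8a had 0.786, 0.786 and 1.19 FPKM in creeping fat and 1.81, 10.8 and 1.70 FPKM in controls, so that every creeping fat library was below every control. Its log2 fold change was -1.22 ± 0.55 with all 6 libraries (limma adjusted p = 0.192). Without control 2 it was -0.53 ± 0.16, where Cd8a was called lower (adjusted p = 0.0387). When creeping fat 2 was left out too it was -0.48 and no longer passed (adjusted p = 0.0863). Over the 14 other settings that tested Cd8a, the limma adjusted p ranged from 0.0387 to 0.38. Cd8b1, which pairs with Cd8a on conventional cytotoxic T cells, did not separate, with 1.49, 1.53 and 1.23 FPKM in creeping fat and 2.29, 10.2 and 0.980 FPKM in controls (-0.79, and -0.08 without control 2). Cd8a also marks a class of dendritic cells. The other members of the role, Cd3g, Zap70, Cd2, Cd5 and Cd6, had estimates of -0.62 to 0.04 and overlapping groups, and of -0.07 to 0.44 without control 2.

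Costimulatory and regulatory T cell genes were low and overlapped between groups. Cd28, the main costimulatory receptor, had 1.43, 1.04 and 2.07 FPKM in creeping fat and 0.825, 4.53 and 1.54 FPKM in controls (-0.25, and 0.20 without control 2). Ctla4, the inhibitory receptor that competes with it, had 1.83, 1.22 and 1.98 FPKM in creeping fat and 0.554, 4.10 and 0.777 FPKM in controls, from 46 to 273 reads a library. Its estimate was 0.14 ± 0.45 and, without control 2, 0.68 ± 0.18, when it was called higher (limma adjusted p = 0.0268). Over the 14 other settings that tested Ctla4, the limma adjusted p ranged from 0.0121 to 0.974. Foxp3, the factor that defines regulatory T cells, had 1.83, 1.81 and 1.81 FPKM in creeping fat and 0.557, 4.30 and 1.27 FPKM in controls. The creeping fat values were nearly equal and lay inside the control range, and Foxp3 missed the threshold without control 2 (0.58 ± 0.19, limma adjusted p = 0.0502). Icos, an inducible costimulator, had an estimate of -0.13, and 0.25 without control 2.

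Gata3 was the member called higher in creeping fat. The gene, at chr2:9857078-9887953 (GRCm38.p6), encodes a zinc finger factor of T cell development, type 2 helper cells and type 2 innate lymphoid cells, and it is also made in several epithelia. It had 4.005, 5.52 and 6.69 FPKM in creeping fat and 0.768, 2.19 and 0.835 FPKM in controls, or 5.41 ± 1.35 and 1.26 ± 0.80 (mean ± SD, n = 3), from 116 to 854 reads a library. Every creeping fat library was above every control, control 2 included, and creeping fat 2 was not the lowest of its group. Controls 1 and 3 lay under the 1 FPKM of the filter, which Gata3 passed by the creeping fat libraries and control 2. With no filter Gata3 was still called (limma adjusted p = 0.032). The log2 fold change was 1.53 ± 0.28 (limma adjusted p = 0.0137) and 1.81 ± 0.20 without control 2 (adjusted p = 0.00113). Over the 14 other settings that tested Gata3, the limma adjusted p ranged from 0.00113 to 0.0619. The call was lost without creeping fat 2 (1.51, adjusted p = 0.0505), without creeping fat 3 (1.39, adjusted p = 0.0597) and without control 3 (1.41, adjusted p = 0.0619). The seminal vesicle genes, all 4 of which were called higher, ran beside it, with summed FPKM of 13339, 26002 and 26176 in creeping fat and 0.171, 46.8 and 5.60 in controls. Their part in the Gata3 result was not tested.

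The other transcription factors had low levels, and the estimates of the 2 tested were negative with all 6 libraries and nearer 0 without control 2. Tcf7 and Lef1 encode high-mobility-group factors of naive and memory T cells. Tcf7 had 1.75, 1.67 and 2.15 FPKM in creeping fat and 2.26, 8.91 and 2.03 FPKM in controls, an estimate of -0.69 ± 0.45 (limma adjusted p = 0.354), and -0.14 without control 2. Lef1 had 0.676, 0.574 and 1.34 FPKM in creeping fat and 1.34, 5.54 and 0.807 FPKM in controls, an estimate of -0.72 ± 0.47 (limma adjusted p = 0.366), and -0.17 without control 2. Both overlapped between groups by creeping fat 3. Tbx21, the type 1 and NK cell factor, Bcl11b, a factor of T cell commitment, and Eomes, a factor of NK and memory cells, reached 1 FPKM in control 2 alone and were not tested. Their levels there were 3.86, 5.02 and 1.26 FPKM, and the other 5 libraries ranged from 0.112 to 0.919 FPKM over these 3 genes.

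Of 6 cytotoxic and NK genes, 4 were not tested because they reached 1 FPKM in fewer than 3 libraries. Nkg7, a granule membrane protein, had 2.96, 4.33 and 5.96 FPKM in creeping fat and 4.18, 23.2 and 4.99 FPKM in controls, an estimate of -0.78 ± 0.58 (limma adjusted p = 0.426), which became -0.08 without control 2. Gzma, encoding granzyme A, had 0.628, 1.36 and 2.04 FPKM in creeping fat and 1.11, 2.98 and 0.680 FPKM in controls, from 20 to 82 reads a library, an estimate of -0.09 ± 0.37, and 0.27 without control 2. Both overlapped between groups. Among the genes not tested, Klrb1c, the NK receptor NK1.1, had 0.410, 0.337 and 0.660 FPKM in creeping fat and 0.274, 2.21 and 1.09 FPKM in controls. Prf1, the pore-forming perforin, had 0.612, 0.440 and 0.674 FPKM in creeping fat and 0.820, 3.44 and 0.544 FPKM in controls. Gzmb and Klrg1, a granzyme and a receptor of effector cells, were highest in creeping fat 3 rather than in control 2, at 1.35 and 1.49 FPKM. At 19 to 67 reads a library for these 2 genes, differences of this size were not tested.

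S1pr1 was the member called lower in creeping fat. The gene, at chr3:115710433-115715055 (GRCm38.p6), encodes the sphingosine-1-phosphate receptor by which lymphocytes leave lymphoid tissue, and it is abundant in endothelium. It had 36.3, 24.3 and 31.1 FPKM in creeping fat and 44.6, 64.7 and 57.5 FPKM in controls, or 30.6 ± 6.04 and 55.6 ± 10.2 (mean ± SD, n = 3). The groups did not overlap, and control 2 was only 1.27 times the mean of the other controls. The log2 fold change was -0.84 ± 0.21 (limma adjusted p = 0.0372) and -0.73 ± 0.20 without control 2 (adjusted p = 0.0293, range over all settings 0.0227 to 0.13). The call was lost without any 1 of creeping fat 1 (-0.97, adjusted p = 0.0689), creeping fat 2 (-0.69, 0.124), creeping fat 3 (-0.87, 0.112) or control 3 (-0.81, 0.13), and with no filter on low values (adjusted p = 0.0551). Endothelial markers lay beside it: 2 of 5, Kdr and Robo4, were called lower, and the 5 summed to 195, 163 and 152 FPKM in creeping fat and 225, 265 and 226 FPKM in controls. Their part in the S1pr1 result was not tested.

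Ptprc, the pan-leukocyte phosphatase CD45, had 36.2, 22.7 and 34.3 FPKM in creeping fat and 15.9, 63.6 and 21.2 FPKM in controls. Its estimate was 0.12 ± 0.49 (limma adjusted p = 0.908) and 0.70 ± 0.23 without control 2 (adjusted p = 0.053, range over all settings 0.00723 to 0.999). Gpr183, a receptor that positions B cells within follicles, had 4.53, 4.11 and 4.61 FPKM in creeping fat and 3.46, 11.7 and 3.98 FPKM in controls, an estimate of -0.28 ± 0.39, and 0.20 without control 2. Cd69, an early activation marker that opposes S1pr1 at the cell surface, had an estimate of -0.22, and 0.16 without control 2. The groups overlapped for all 3 genes, and for Ptprc and Gpr183 by control 2 alone.

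Ratios of members within a library were then computed, since the amount of lymphocyte RNA varied between libraries of 1 group. They were chosen after the levels were seen, and 50 were computed in all. With 3 libraries against 3 the smallest p of an exact two-sided permutation test is 0.1, and the smallest adjusted value over the 50 was 0.227, so none can pass and the ratios are a description.

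Plasma cell RNA relative to B cell RNA was higher in every creeping fat library than in any control. The summed FPKM of Jchain and Mzb1 over that of Cd79a and Cd79b was 4.04, 7.18 and 4.27 in creeping fat and 0.520, 1.605 and 0.892 in controls. Control 2, with the most B cell RNA, was the highest control and still under all creeping fat libraries. Each of Jchain, Mzb1, Prdm1 and Pou2af1 had a higher ratio to Ms4a1 without overlap: Jchain 28.1, 61.2 and 36.5 against 3.17, 14.2 and 5.23, and Pou2af1 3.16, 4.59 and 3.44 against 1.3002, 2.83 and 1.05. Pax5, Cr2 and Fcer2a had lower ratios to Ms4a1 without overlap. For Cr2 these were 0.372, 0.272 and 0.351 in creeping fat and 0.579, 0.577 and 0.491 in controls. For Fcer2a they were 0.422, 0.341 and 0.392 in creeping fat and 0.711, 1.22 and 0.526 in controls. Altogether 4 of 16 B and plasma cell members were higher relative to Ms4a1 (26.4% of all genes tested were) and 3 of 16 were lower (0.367% of all genes). The share of higher members thus lies near that of all genes. Ms4a1 itself was raised in control 2, and in creeping fat 2 it was 0.28 times the mean of creeping fat 1 and 3. Most genes did not vary in this way, so the all-gene share is not a matched background. The separations of single members given here hold for Ms4a1 as the denominator.

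Within the T cell genes Cd8a and several others were lower relative to Cd3e. The ratio of Cd4 to Cd8a was 16.9, 8.67 and 19.3 in creeping fat and 2.29, 2.68 and 4.44 in controls, without overlap. Cd8a with Cd8b1 over the 3 Cd3 chains was 0.138, 0.160 and 0.103 in creeping fat and 0.352, 0.460 and 0.210 in controls, also without overlap. Cd8b1 alone over Cd3e did overlap, at 0.163, 0.225 and 0.0977 in creeping fat and 0.383, 0.386 and 0.139 in controls. Cd4 over Cd3e overlapped between groups, at 1.45, 1.01 and 1.81 in creeping fat and 0.692, 1.10 and 1.07 in controls. Cd4 over the macrophage marker Csf1r overlapped too, at 0.0768, 0.0421 and 0.117 in creeping fat and 0.0879, 0.204 and 0.0959 in controls. The part of macrophages in the Cd4 values was not tested. Of 26 T and NK members, 10 had lower ratios to Cd3e without overlap: Cd8a, Lck, Cd2, Cd5, Tbx21, Tcf7, Lef1, Bcl11b, Nkg7 and Prf1. Among the 19 of these that passed the filter on low values the count was 7, against 1.79% of all genes tested, which is again no matched background, since Cd3e was 4.04 times as high in control 2 as in the other controls. For Lef1 the ratios were 0.0739, 0.0847 and 0.106 in creeping fat and 0.224, 0.211 and 0.115 in controls. Of the 19 that passed the filter, 2 had higher ratios without overlap, near the 11.3% of all genes. These were Gata3, at 0.438, 0.815 and 0.530 against 0.128, 0.0831 and 0.119, and Ctla4, at 0.200, 0.180 and 0.157 against 0.0926, 0.156 and 0.110. Both passed the filter only by the creeping fat libraries and control 2. The Ctla4 groups nearly touched, as did those of Lef1 and of Cd5 (0.253 in creeping fat 2, 0.261 in control 3). Single members were set against Cd3e only. These separations therefore hold for that denominator, and ratios of single members to Cd3d or Cd3g were not computed. B cell RNA relative to T cell RNA did not separate: Cd79a with Cd79b over the 3 Cd3 chains was 4.49, 2.08 and 5.74 in creeping fat and 4.96, 4.61 and 5.69 in controls.

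**Figure D5:**
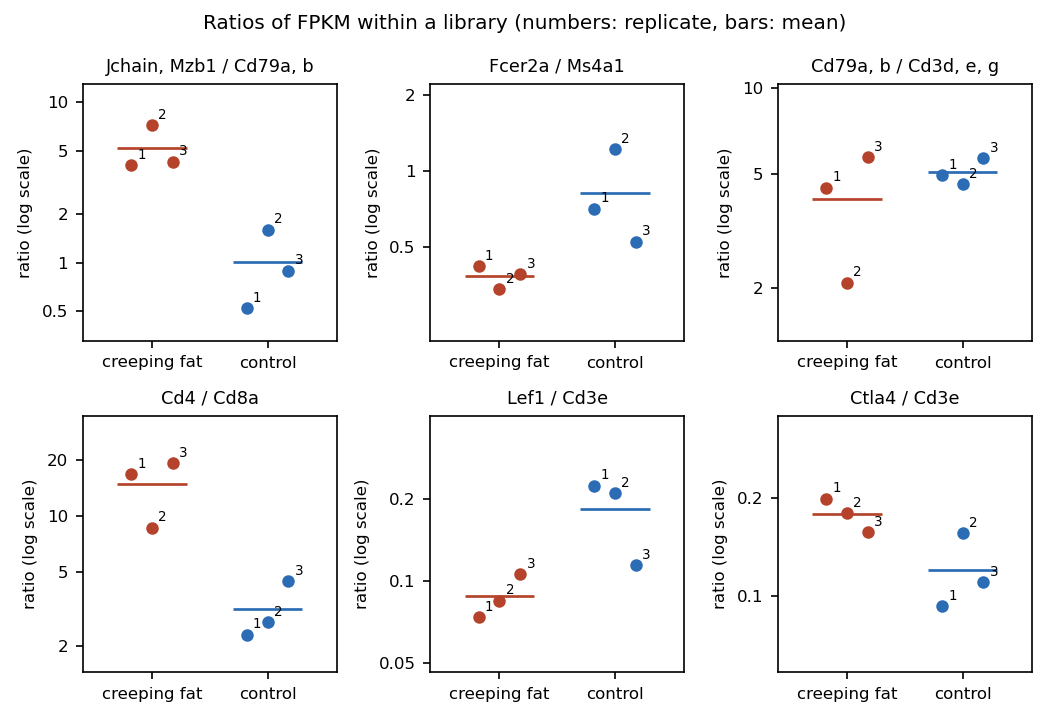
Ratios of FPKM within a library, on log axes, for 6 pairs of members or sums of members, with replicate numbers at the points and group means as bars. Creeping fat and control do not overlap for Jchain with Mzb1 over Cd79a with Cd79b, Fcer2a over Ms4a1, Cd4 over Cd8a, Lef1 over Cd3e and Ctla4 over Cd3e, while Cd79a with Cd79b over the Cd3 chains overlaps.

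The other genes of the lymphocyte pathways are counted against the 9.35% of all genes called higher and 6.81% called lower. Of 22 genes of B cell receptor signalling tested, 0 were higher and 1 lower by limma, with a median log2 fold change of -0.01 and 2 at an unadjusted p under 0.05. The lower one was Ebf1, a B lineage factor also made in adipose cells, with 8.06, 6.498 and 8.46 FPKM in creeping fat and 11.9, 15.9 and 14.2 FPKM in controls (-0.79 ± 0.17, limma adjusted p = 0.0216). Of 22 tested genes of T cell receptor signalling (26 on the list), 0 passed by limma and 1 had an unadjusted p under 0.05, with a median of -0.29. The most abundant of these was Il2rg, the common cytokine receptor chain, with 50.6, 26.8 and 46.2 FPKM in creeping fat and 17.5, 86.5 and 28.5 FPKM in controls. It was followed by Plcg1, a phospholipase downstream of the receptor, at 22.5 to 25.8 FPKM in creeping fat and 23.2 to 30.2 FPKM in controls.

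Of 16 tested NK and innate lymphoid genes (24 on the list), 2 were higher and 1 lower, with a median of -0.05. Tyrobp and Fcer1g, adaptors of activating receptors in NK cells and also in myeloid cells, rose by 1.87 ± 0.40 and 1.78 ± 0.38 on the log2 scale (limma adjusted p = 0.0217 and 0.0231). Tyrobp had 381, 285 and 396 FPKM in creeping fat and 52.4, 160 and 101 FPKM in controls, in the same order of groups as the macrophage markers, whose part was not tested. Zbtb16, a factor of innate-like T cells and innate lymphoid precursors that is also made outside the immune system, had 13.9, 8.66 and 14.1 FPKM in creeping fat and 45.2, 55.7 and 65.0 FPKM in controls (-2.11 ± 0.23, limma adjusted p = 0.00285). Of 18 tested genes of lymphoid homing and lymph node stroma (20 on the list), 1 was higher and 0 lower by limma, with a median of 0.13. That gene was Cxcl13, the chemokine that draws B cells into follicles, with 23.8, 18.03 and 24.2 FPKM in creeping fat and 10.2, 9.27 and 14.2 FPKM in controls (0.92 ± 0.20, limma adjusted p = 0.0248). Unlike Ccl21a, Cxcl13 was not raised in control 2. Without control 2, when 22.6% of all genes were called higher and 14.5% lower, the calls were 7 higher and 1 lower for B cell receptor signalling, 3 and 0 for T cell receptor signalling, 5 and 1 for NK and innate lymphoid genes, and 8 and 1 for homing and stroma. Of 17 immunoglobulin and T cell receptor constant gene names, 1 matched the table and it was not tested, so antibody classes are not analysed here.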

How the data were processed

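Total RNA of 6 adipose libraries, each with RNA integrity number of at least 7, was made into stranded, ribosomal RNA-depleted libraries, per the labels' protocols. The authors deposited one FPKM table, the values being normalized for gene length and depth. The submitters' processing notes name mm10 as the build. The aligner, counter, annotation and strand setting are not given in the sources used here, so a gene and an antisense partner may share reads. Whole reads were recovered from the FPKM steps (18712 of 18714 genes above 0, tolerance 0.002 reads). The floor of 3 reads is 0.0691 to 0.0962 FPKM for a 1 kb gene, covering counting error only.

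Genes reaching 1 FPKM in 3 or more of the 6 libraries were tested with limma 3.58.1 in R 4.3.3 on log2(FPKM + 1), trended, two-sided, with Benjamini-Hochberg adjustment over 12812 genes and a threshold of 0.05. The pseudocount of 1 understates the change of low genes. Tested on simulated reads with a common spread, no deviating library and a fixed large change, this fit called 188 of 196 changed genes. It also called 9 unchanged genes. Control 2 stood apart in the real data, so these counts do not give the detection rate here. Alternatives were other pseudocounts, filters and scalings, limma-voom on recovered reads, a replicate block and leaving out libraries. The members and lists were chosen with earlier results of these data known. Named with all values were genes called with all libraries or without control 2, the 3 most abundant of each role and 10 chosen markers. A few more, said to be so, were chosen after their values were seen, and Cd8b1 was added beside Cd8a. From each other list up to 2 called genes a direction, or else the 2 most abundant, are named, with Ccl21a and Plcg1 beside them. RefSeq (GRCm38.p6) supplied coordinates for 48 of 48 members and promoters for 35. Figures and ratios were made in Python 3.11.15.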

Additional observations from a re-analysis of the deposited data

How the results depend on the processing

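Of 350 values of the named members over 15 other settings, 294 kept their direction and side of the threshold. Pseudocounts of 0.1 and 0.5, median-ratio scaling and voom on recovered reads changed the sign of none of the 24 named members with a fold change, and each left 1 member called higher and 1 lower. Members called higher went from 1 to 0 with a filter of at least 5 FPKM on the mean (24 members tested). That filter removed Gata3 (mean 3.33 FPKM), which was thus not tested there. Members called higher went to 0 to 6 when single libraries were left out, and to 11 without creeping fat 2 and control 2. Members called lower went from 1 to 0 without a filter and with the replicate block, and to 0 to 2 when single libraries were left out. Genes called higher among all tested went from 1198 to 636 with the replicate block, to 576 to 2896 without single libraries and to 2713 without creeping fat 2 and control 2. Genes called lower went from 872 to 378, to 287 to 1857 and to 1731 in the same order. The labels do not say whether the numbers pair the libraries. Deviations of same-numbered libraries correlated at -0.181, -0.1802 and -0.08103, and those of the other pairings at -0.1376 to 0.2435. With 3 libraries a group these values cannot settle pairing. The block cost S1pr1 its call (limma adjusted p = 0.124), while Gata3 kept its call.

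Signs turned without creeping fat 2 and control 2 for Ms4a1 (0.16), Cd79a (0.66), Cd79b (0.56), Cd37 (0.57), Bcl6 (0.28), Cd3d (0.54), Cd3e (0.65), Lck (0.18), Cd28 (0.34), Gzma (0.24) and Gpr183 (0.24), and under quantile normalization for Foxp3 (-0.001451). Leaving out single libraries gave Cd79a -0.95 to 0.13, Cd79b -1.02 to 0.0712, Cd37 -0.68 to 0.26, Bcl6 -0.46 to 0.0644, Cd3d -0.53 to 0.47, Cd3e -0.53 to 0.45, Cd4 -0.20 to 1.07, Lck -1.21 to 0.00986, Cd28 -0.60 to 0.20, Ctla4 -0.18 to 0.68, Foxp3 -0.30 to 0.58, Gzma -0.35 to 0.27, Ptprc -0.27 to 0.70 and Gpr183 -0.56 to 0.20. The causes were not tested, beyond the smaller numbers of libraries or genes that these settings use. Depth was lowest for Eomes, at 16 reads in 1 library, and 7 low members were not tested.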
